A study of Mus musculus with 32 samples.

Results

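Arntl, Clock and Npas2 encode BMAL1, CLOCK and NPAS2, the transcriptional activators at the centre of the mammalian circadian clock. They were found on the array by the RefSeq identifier of each probe, which gave 1 probe per gene, or 3 of 55681 probes, and all 3 genes were among the 23110 genes tested. Npas2 passed the filter on dim probes only through the steady-schedule groups at ZT2, so its differences from those groups were fixed in part by the filter, and it is left out of every count of members called. It does enter the tally of alternative fits at the end. The arrays hold liver RNA of 32 singly housed male wild-type C57BL/6 mice, 1 mouse per 1-colour Agilent array. Under chronic jet lag (CJ), 16 mice were transferred from 4 weeks of age between 2 rooms with a light onset 8 h apart, whereas 16 mice on the steady schedule (NS) stayed in 12 h of light and 12 h of dark. Livers came from zeitgeber times 2, 10 and 18 (ZT, in hours from lights on), from mice aged 30 or 12 weeks, with 2 mice per group at ZT2 and 3 per group at ZT10 and ZT18, 12 groups in all. For CJ livers the sources do not place the collection time against the most recent room change. The samples are whole livers, so a change in the number of cells of a type and a change in RNA per cell cannot be told apart.

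BMAL1 is a basic helix-loop-helix PAS protein that binds E-box sequences only as a dimer with CLOCK or with its close relative NPAS2. The dimers switch on the Per and Cry genes, whose products inhibit the dimers, and the nuclear receptor genes Nr1d1 and Nr1d2, whose products REV-ERB alpha and REV-ERB beta repress Arntl, Clock and Npas2 through ROR elements. The ROR receptors activate through the same elements. In the liver of mice kept on a regular light cycle, Arntl RNA is known to be high around light onset and low towards the end of the light phase.

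ROR elements are the sequences through which the loop closes on Arntl, so the promoter windows of the members are shown first. The windows run from 250 bases before to 50 bases after an annotated start and come from RefSeq, build GRCm38.p6. All 3 genes matched, with 2 windows for Arntl, 3 for Clock and 1 for Npas2. Capitals mark ROR-type sequences on either strand: the core AGGTCA, the longer form TAGGTCA that contains this core, and the variant TAGGTTA. The window of Arntl with most matches lies at chr7:113207261-113207560 on the plus strand, the first window of Clock at chr5:76304743-76305042 on the minus strand and that of Npas2 at chr1:39194022-39194321 on the plus strand.
Arntl: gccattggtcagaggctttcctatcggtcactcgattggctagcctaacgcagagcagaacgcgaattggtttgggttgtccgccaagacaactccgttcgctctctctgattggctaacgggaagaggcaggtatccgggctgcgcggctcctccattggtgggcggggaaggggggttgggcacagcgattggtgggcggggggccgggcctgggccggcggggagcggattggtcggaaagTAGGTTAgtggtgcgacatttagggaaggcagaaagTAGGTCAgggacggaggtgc
Clock: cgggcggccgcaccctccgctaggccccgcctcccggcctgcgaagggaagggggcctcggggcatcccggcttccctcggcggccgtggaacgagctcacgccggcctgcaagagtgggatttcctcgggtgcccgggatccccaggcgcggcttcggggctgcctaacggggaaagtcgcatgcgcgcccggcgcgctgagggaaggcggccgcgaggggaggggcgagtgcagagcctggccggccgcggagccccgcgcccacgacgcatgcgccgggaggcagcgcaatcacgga
Npas2: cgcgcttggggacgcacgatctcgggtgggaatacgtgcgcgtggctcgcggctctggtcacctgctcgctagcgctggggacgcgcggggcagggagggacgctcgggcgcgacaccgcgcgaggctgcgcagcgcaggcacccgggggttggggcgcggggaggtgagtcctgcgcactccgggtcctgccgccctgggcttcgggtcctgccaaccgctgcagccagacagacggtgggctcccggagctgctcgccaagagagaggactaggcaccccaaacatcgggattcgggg

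The Arntl window held TAGGTTA beginning at position -6 and TAGGTCA beginning at position 31 relative to the start, counted along the gene's strand. Its other window overlaps this one and held the same TAGGTTA. Among 32851 promoter windows of the same length in the RefSeq table, 2.61% held TAGGTCA, 1.44% held TAGGTTA and 16.3% held AGGTCA on at least 1 strand. The shown windows of Clock and Npas2 held none of these letters, and the last of the Clock windows held AGGTCA on the reverse strand. No window of the 3 genes held the E-box CACGTG (7.15% of all windows) or the D-box form TTATGNAA (3.38%). These motifs were chosen with the Arntl window in view, a match is only a run of letters, and the absence of a match covers only the window searched.

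Hepatocyte markers were well above background on every array for 10 of 10 genes, with a mean level of 8.80 to 9.28 on the log2 scale, as the liver label requires. Levels throughout are log2 of the processed signal minus the 75th percentile of the array, so that 0 is the 75th percentile. Per array, between 43.4% and 58.1% of probes were well above background. Markers of skeletal muscle (14 genes, mean level -4.55 to 3.70, with 3 to 14 well above background) and of pancreatic acinar cells (12 genes, -4.30 to 3.97, with 3 to 12 well above background) varied widely between arrays.

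Arntl, the obligate partner in every activator dimer, had the largest daily range of the members in NS livers and a much smaller one in CJ livers. In CJ livers of 30 weeks its level was -2.01 and 1.03 at ZT2, -1.64, -1.07 and -1.09 at ZT10, and -0.59, -0.54 and -0.91 at ZT18. In NS livers of 30 weeks it was 2.03 and 2.10 at ZT2, -4.89, -3.16 and -4.45 at ZT10, and 1.74, 1.61 and 1.54 at ZT18. All CJ mice lay between the NS peak and the NS trough, and no CJ mouse overlapped the NS mice of its own time. The share of all genes that separate in this way was not counted, here or below, so it is a description of 2 or 3 mice per group.

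The 12-week livers had the same arrangement. In CJ livers of 12 weeks Arntl was at 1.08 and 0.27 at ZT2, -1.52, -0.06 and -1.19 at ZT10, and -1.27, -0.75 and -0.52 at ZT18. In NS livers of 12 weeks it was at 1.99 and 2.13 at ZT2, -3.83, -3.62 and -3.48 at ZT10, and 1.77, 1.37 and 1.64 at ZT18. Again the NS mice at ZT10 were the lowest and the NS mice at ZT2 the highest, with every CJ mouse between them. The Arntl probe was well above background on 29 of 32 arrays. The 3 dim arrays were all NS at ZT10, so that 1 of 3 mice at 30 weeks and 2 of 3 at 12 weeks gave a measured trough.

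**Figure D1:**
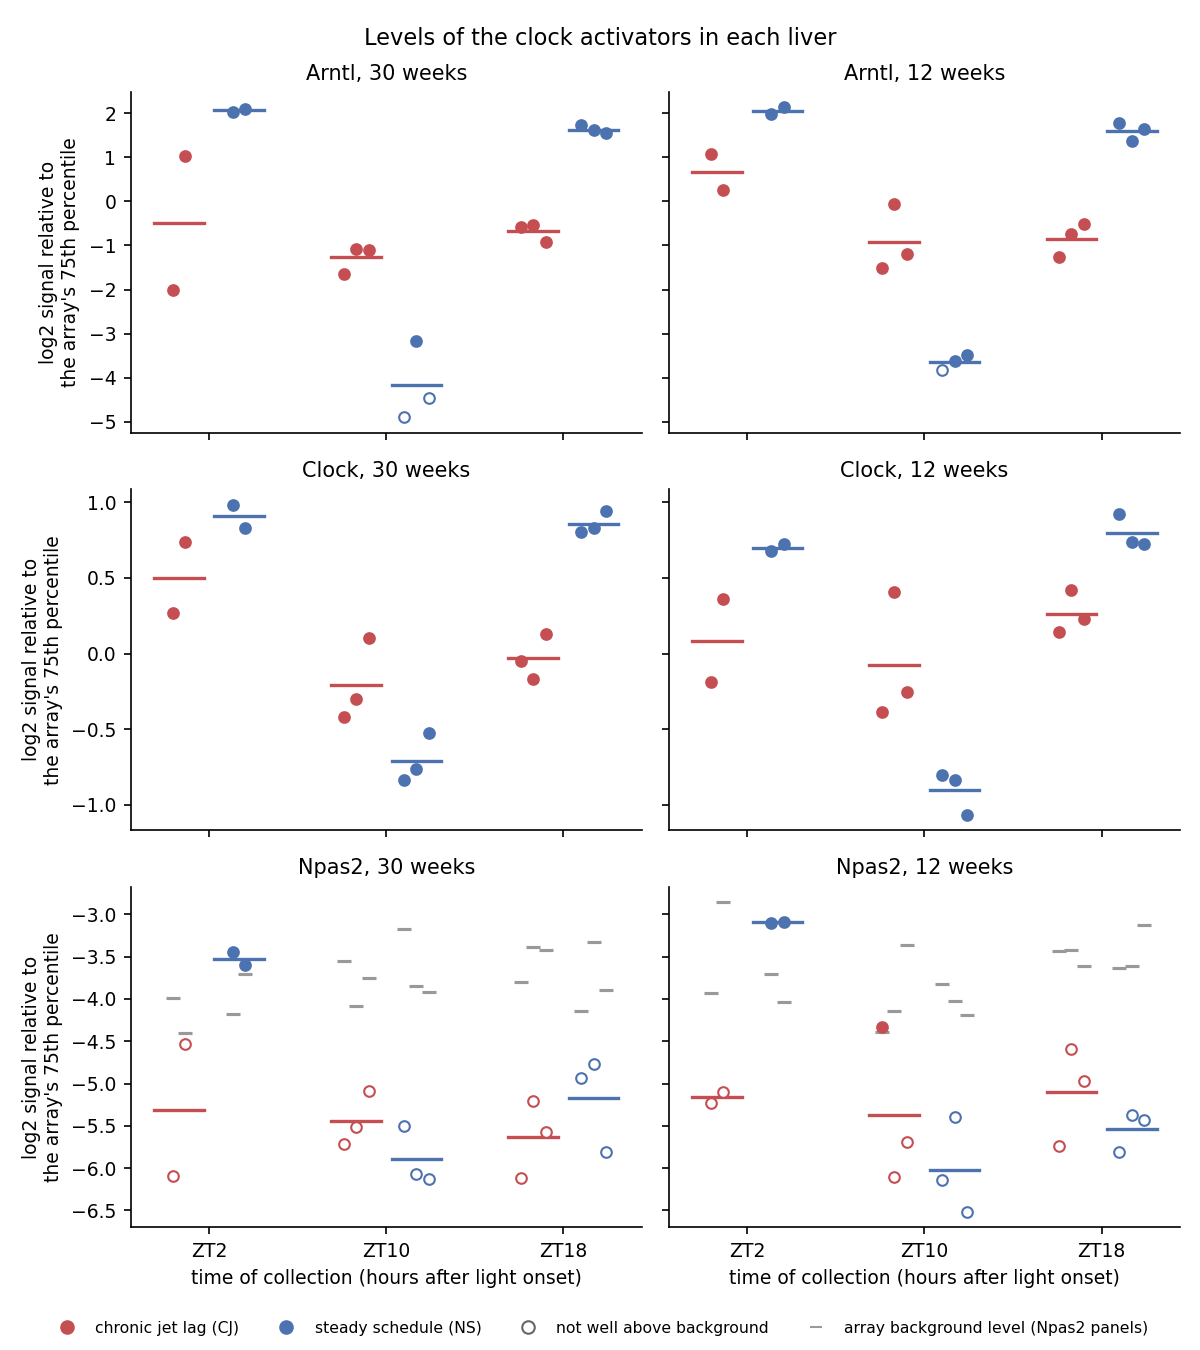
Level of Arntl, Clock and Npas2 in each of 32 livers by time of collection, as log2 signal relative to the 75th percentile of the array, with 30 weeks on the left and 12 weeks on the right, CJ in red and NS in blue. Each point is 1 mouse, bars are group means, open points were not well above background, and grey dashes in the Npas2 panels give the background level of the same array. The CJ points of Arntl lie between the NS peak at ZT2 and the NS trough at ZT10.

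Time of day was tested within each schedule with limma over all 23110 genes (F test over 3 times, Benjamini-Hochberg adjusted p under 0.05 counting as a call). The fitted daily range of Arntl in CJ livers was 0.87 at 30 weeks (adjusted p = 0.626) and 1.72 at 12 weeks (adjusted p = 0.141), so it was not called at either age. Without either CJ mouse of ZT2 and 30 weeks, the 12-week range was 1.62 and was called (adjusted p = 0.0231). In NS livers it was 6.10 at 30 weeks (adjusted p = 1.6e-07) and 5.75 at 12 weeks (adjusted p = 1.4e-07). In plain group means the CJ range was 12.4% of the NS range at 30 weeks and 28.0% at 12 weeks. With signals below the background level raised to it, the NS range was 5.33 at 30 weeks and 5.82 at 12 weeks.

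The difference in range was tested directly as the difference of the daily profiles between schedules (schedule by time of day). Across the 3 times the CJ minus NS difference of Arntl spanned 5.23 on the log2 scale at 30 weeks (adjusted p = 0.000869) and 5.22 at 12 weeks (adjusted p = 0.000994). In this test both Arntl and Clock were called at each age, against 1.97% of all genes at 30 weeks and 1.9% at 12 weeks. With the slide as a fixed term the Arntl span was 4.93 at 30 weeks (adjusted p = 0.0533), which ends that call. The 12-week call held there (5.33, adjusted p = 0.0416), and both calls held when any 1 mouse was left out.

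Time by time, Arntl was higher in CJ livers where the NS level was low, and lower where it was high. At ZT10 it rose by 2.73 ± 0.50 (SE) in CJ at 30 weeks (adjusted p = 0.0151, 1 of the 2 genes Arntl and Clock called, against 0.736% of all genes) and by 2.72 ± 0.50 at 12 weeks (adjusted p = 0.00943, both genes called, against 1.71%). All 3 CJ mice lay above all 3 NS mice at each age. The NS level at ZT10 was measured in 1 of 3 mice at 30 weeks and 2 of 3 at 12 weeks, so the size of the gain is uncertain and no fold is given. With signals raised to background it was 2.01 at 30 weeks (adjusted p = 0.0364) and 2.71 at 12 weeks (adjusted p = 0.00423), and with normexp background correction 0.69 (adjusted p = 0.395) and 1.32 (adjusted p = 0.022). At ZT18 the CJ minus NS difference was -2.17 ± 0.50 at 30 weeks (adjusted p = 0.0164, both genes called, against 3.47%) and -2.50 ± 0.50 at 12 weeks (adjusted p = 0.00735, 1 of the 2 genes, against 2.83%). At ZT2 it was -2.50 ± 0.63 at 30 weeks (adjusted p = 0.0471, 1 of the 2 genes, against 1.36%) and -1.31 ± 0.63 at 12 weeks (adjusted p = 0.428, 0 of the 2 genes, against 0.255%, although both had an unadjusted p under 0.05).

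The ZT2 call at 30 weeks ended in 24 of the 32 fits without 1 mouse, among them fits without a mouse of another group. Its size turned on the 2 CJ mice of that group. Without mouse 1, at -2.01, the difference was -0.95 (adjusted p = 0.809), and without CJ mouse 2 it was -4.05. Without that mouse 1 the daily range of Arntl in CJ livers of 30 weeks was 2.42 and was called (adjusted p = 0.0275). The ZT10 and ZT18 differences kept their direction when any 1 mouse was left out, and their calls ended (adjusted p of 0.0513 to 0.134) without NS mouse 1 or CJ mouse 2 at ZT10 and 30 weeks, NS mouse 3 or CJ mouse 2 at ZT10 and 12 weeks, NS mouse 2 or CJ mouse 3 at ZT18 and 30 weeks, or NS mouse 1 at ZT18 and 12 weeks.

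On the 4 slides that held both a CJ and an NS liver of the same time and age, 1 pair each, Arntl differed the same way. At ZT10 the CJ liver was higher by 1.52 at 30 weeks and by 1.96 at 12 weeks. At ZT18 the within-slide difference was -2.52 at 30 weeks and -2.53 at 12 weeks. No slide held such a pair at ZT2. With the slide as a fixed term in the fit, the 5 called differences of Arntl ran from -2.58 to 2.75 with adjusted p of 0.0569 to 0.185, none of them a call.

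Markers of other tissues were uneven between the same groups. At ZT10 the mean level of skeletal muscle markers was 0.28 (range -3.60 to 3.70) in CJ and -3.05 (-4.04 to -1.17) in NS livers of 30 weeks, and 0.64 (-0.31 to 1.48) in CJ and -2.71 (-4.50 to -1.78) in NS livers of 12 weeks. At ZT18 it was 2.11 (-0.61 to 3.60) in CJ and 1.72 (0.73 to 2.40) in NS livers of 30 weeks, and -1.75 (-3.64 to 1.79) in CJ and 1.25 (0.74 to 1.59) in NS livers of 12 weeks, with overlapping mice at both ages. Pancreatic acinar markers at ZT10 averaged -0.20 (-3.42 to 1.47) in CJ and -1.83 (-4.01 to 2.18) in NS livers of 30 weeks, and 1.30 (-3.86 to 3.97) in CJ and -3.24 (-4.11 to -1.55) in NS livers of 12 weeks. Adipocyte markers (5 genes) at ZT10 averaged -0.06 (-1.50 to 0.97) in CJ and -1.35 (-2.25 to 0.36) in NS livers of 30 weeks, and -0.60 (-0.87 to -0.31) in CJ and -1.79 (-2.74 to -0.12) in NS livers of 12 weeks. The part of adipocyte markers in the Arntl differences was not tested. With the muscle and acinar marker levels as covariates, the ZT10 difference of Arntl was 2.53 at 30 weeks (adjusted p = 0.0482) and 2.13 at 12 weeks (adjusted p = 0.185), and the ZT18 difference was -2.33 (adjusted p = 0.00805) and -2.27 (adjusted p = 0.0397).

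Clock, whose product is the DNA-binding and histone-modifying partner of BMAL1, followed the same outline with a much smaller range. In CJ livers of 30 weeks its level was 0.27 and 0.74 at ZT2, -0.42, -0.30 and 0.10 at ZT10, and -0.05, -0.17 and 0.13 at ZT18. In NS livers of 30 weeks it was 0.98 and 0.83 at ZT2, -0.84, -0.76 and -0.52 at ZT10, and 0.80, 0.83 and 0.94 at ZT18. The CJ mice lay above the NS mice at ZT10 and below them at ZT2 and ZT18, with no overlap at any time.

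At 12 weeks the order was alike. In CJ livers Clock was at -0.19 and 0.36 at ZT2, -0.38, 0.41 and -0.26 at ZT10, and 0.14, 0.42 and 0.23 at ZT18. In NS livers it was at 0.68 and 0.72 at ZT2, -0.80, -0.84 and -1.06 at ZT10, and 0.92, 0.74 and 0.72 at ZT18. No CJ mouse overlapped the NS mice of its time, and the probe was well above background on all 32 arrays. For Clock too, at both ages, the share of all genes without such overlap was not counted.

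The fitted daily range of Clock was 0.69 in CJ livers of 30 weeks (adjusted p = 0.119) and 0.34 in those of 12 weeks (adjusted p = 0.519). In NS livers it was 1.59 at 30 weeks (adjusted p = 6.04e-06) and 1.63 at 12 weeks (adjusted p = 2.29e-06). The difference of the daily profiles spanned 1.46 at 30 weeks (adjusted p = 0.0109) and 1.41 at 12 weeks (adjusted p = 0.0100). With the slide as a fixed term the span was 1.58 (adjusted p = 0.103) at 30 weeks and 1.37 (adjusted p = 0.143) at 12 weeks, and without NS mouse 3 at ZT10 the 12-week span was 1.31 (adjusted p = 0.0562). Without CJ mouse 1 at ZT2 the CJ range at 30 weeks was 1.03 (adjusted p = 0.0456). In plain group means the CJ range of Clock was 43.9% of the NS range at 30 weeks and 20.0% at 12 weeks.

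At single times 2 of 6 differences of Clock were called. At ZT18 and 30 weeks Clock fell in CJ, with a difference of -0.95 ± 0.18 (adjusted p = 0.00424), a call that held when any 1 mouse was left out and with the slide as a fixed term (-1.03, adjusted p = 0.0303). At ZT10 and 12 weeks it rose by 0.79 ± 0.18 (adjusted p = 0.0257), a call that ended without NS mouse 3 (0.70, adjusted p = 0.201) or CJ mouse 2 (0.56, adjusted p = 0.154) and with the marker covariates (0.81, adjusted p = 0.209).

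The other differences of Clock missed the threshold. At ZT10 and 30 weeks the value was 0.52 (95% interval 0.14 to 0.89, adjusted p = 0.201), and at ZT18 and 12 weeks -0.50 (-0.87 to -0.12, adjusted p = 0.153). At ZT2 it was -0.34 (-0.81 to 0.13, adjusted p = 0.624) at 30 weeks and -0.62 (-1.09 to -0.15, adjusted p = 0.282) at 12 weeks. Within slides Clock was higher in the CJ liver at ZT10 by 0.34 at 30 weeks and 0.68 at 12 weeks, and the ZT18 difference was -0.70 at 30 weeks and -0.51 at 12 weeks.

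**Figure D2:**
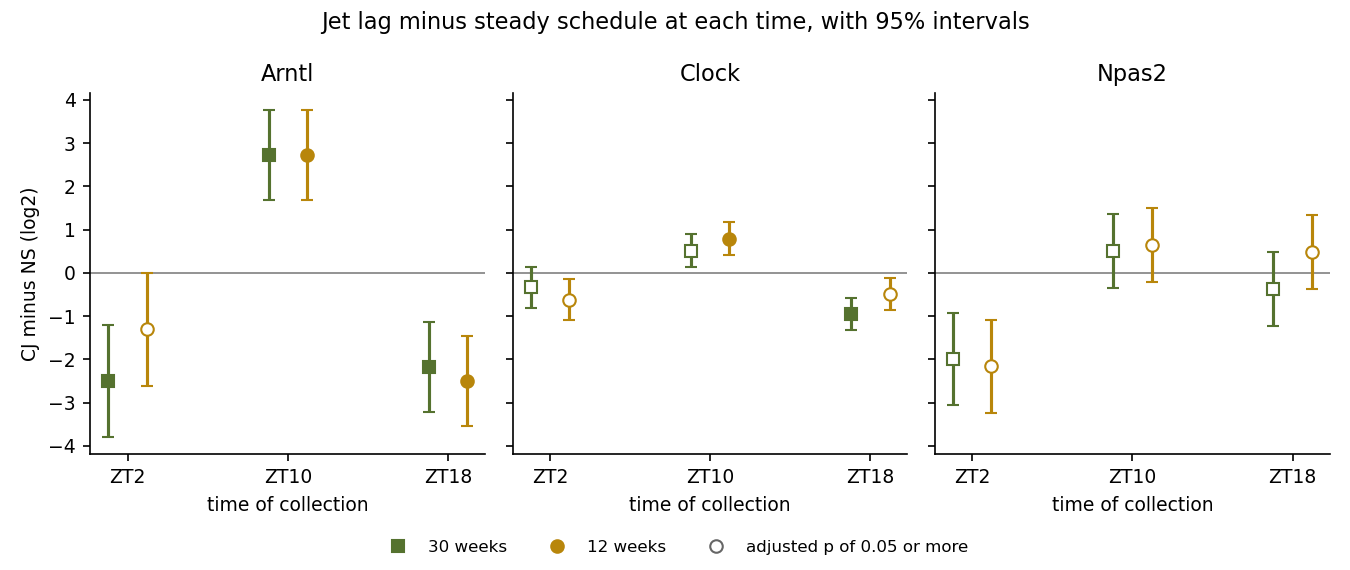
CJ minus NS difference (log2) of Arntl, Clock and Npas2 at ZT2, ZT10 and ZT18, with 95% intervals from the limma fit, squares for 30 weeks and circles for 12 weeks. Filled symbols had an adjusted p under 0.05. The Arntl differences were 2.73 and 2.72 at ZT10 and below 0 at ZT2 and ZT18, and those of Npas2 were largest at ZT2 and rest on signals near background.

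Npas2, which can take the place of CLOCK in the dimer, was close to the detection limit of its probe and was well above background on 5 of 32 arrays. In CJ livers of 30 weeks its level was -6.09 and -4.54 at ZT2, -5.72, -5.52 and -5.09 at ZT10, and -6.12, -5.21 and -5.57 at ZT18, none of them well above background. In NS livers of 30 weeks it was -3.45 and -3.60 at ZT2, both well above background, -5.50, -6.07 and -6.12 at ZT10, and -4.93, -4.77 and -5.81 at ZT18. The NS mice at ZT2 stood above all others of that age.

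At 12 weeks the NS livers at ZT2 again stood above the rest. In CJ livers Npas2 was at -5.23 and -5.10 at ZT2, -4.33, -6.11 and -5.69 at ZT10, and -5.74, -4.59 and -4.98 at ZT18, of which only the first mouse at ZT10 was well above background. In NS livers it was at -3.10 and -3.09 at ZT2, both well above background, -6.15, -5.39 and -6.52 at ZT10, and -5.81, -5.37 and -5.43 at ZT18.

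The fitted daily range of Npas2 was 0.26 at 30 weeks and 0.42 at 12 weeks in CJ livers, beside 2.49 and 3.0 in NS livers. The profiles differed between schedules by 2.49 at 30 weeks and 2.81 at 12 weeks in the fit. These values rest on the NS groups at ZT2 through which the gene passed the filter, and on other groups almost all below background, so they are a description and no test is read from them. Of Arntl and Clock, neither was called for time of day in CJ livers, against 3.62% of all genes at 30 weeks and 5.7% at 12 weeks, with 1 of the 2 genes at an unadjusted p under 0.05 in limma at each age. Both were called in NS livers, against 11.2% and 17.4% of all genes.

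Most of these values lie below the background level, taken on each array as the dimmest probe that still passed the background test, so a fold can only be bounded. With dim groups raised to that level, Npas2 at ZT2 was at least 1.59-fold lower in CJ than in NS livers at 30 weeks and at least 1.23-fold lower at 12 weeks. In NS livers it was at least 1.09-fold lower at ZT10 and at least 1.20-fold lower at ZT18 than at ZT2 at 30 weeks, and at least 1.89-fold and 1.29-fold lower at 12 weeks. All these bounds are against the NS groups at ZT2 through which the gene passed the filter, so they are a description of group means. For CJ mouse 2 at ZT2 and 12 weeks the background level was -2.85, above the NS mean of -3.09, so that mouse alone gives no bound. With all signals raised to background in the fit, the NS daily range of Npas2 was 0.24 at 30 weeks (adjusted p = 0.789) and 0.68 at 12 weeks (adjusted p = 0.126), neither a call.

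With log2 levels averaged over the 3 times, neither Arntl nor Clock was called between schedules by limma. At 30 weeks both had an unadjusted p under 0.05 and at 12 weeks neither had. The CJ minus NS difference of Arntl was -0.65 ± 0.30 at 30 weeks (adjusted p = 0.223) and -0.36 ± 0.30 at 12 weeks (adjusted p = 0.526), where 6.25% and 4.44% of all genes were called. That of Clock was -0.26 ± 0.11 (adjusted p = 0.173) and -0.11 ± 0.11 (adjusted p = 0.611), and the Npas2 values, mostly below background, were -0.62 and -0.34. The values of Arntl and Clock were below 0 at both ages. Those of Npas2 were fixed in part by the filter and are not read with them. At 30 weeks these results turned on 1 mouse, since without CJ mouse 2 at ZT2 Arntl (-1.17, adjusted p = 0.00345) and Clock (-0.37, adjusted p = 0.0441) were called. Arntl was also called in the authors' deposited table (-0.81, adjusted p = 0.0403), with normexp (-1.01, adjusted p = 0.00122) and with signals raised to background (-0.90, adjusted p = 0.0461). The 95% interval of Arntl ran from -1.26 to -0.04 at 30 weeks and from -0.97 to 0.25 at 12 weeks.

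By limma age did not move Arntl or Clock past the threshold either, and neither had an unadjusted p under 0.05 in these age tests. The Npas2 values, mostly below background, are given without a test. Over the mean of the 3 times, 30 minus 12 weeks in CJ livers gave -0.45 ± 0.30 for Arntl (adjusted p = 0.392) and 0.00 ± 0.11 for Clock (adjusted p = 0.991). There 5.31% of all genes were called, and the Npas2 value was -0.25. The Arntl value in CJ livers was called without CJ mouse 2 at ZT2 and 30 weeks (-0.97, adjusted p = 0.02) and was 0.068 without CJ mouse 1 of that group (adjusted p = 0.913). In NS livers the difference was -0.16 ± 0.30 for Arntl (adjusted p = 0.930) and 0.15 ± 0.11 for Clock (adjusted p = 0.731). There 0.9% of all genes were called, and the Npas2 value was 0.03. The daily profile of Arntl and of Clock was not called as different between ages by limma in CJ livers (adjusted p of 0.588 to 0.793, 0.389% of all genes called). Nor was it in NS livers (0.998 to 0.999, 0.151% called). Schedule by age was not called in Arntl or Clock either (adjusted p of 0.708 to 0.806, 0.00865% of all genes called).

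Set in order by group mean, Arntl ran from 2.06 in NS livers at ZT2 and 30 weeks to -4.17 in NS livers at ZT10 and 30 weeks. The 4 NS groups of ZT2 and ZT18 came first, then the 6 CJ groups between 0.67 and -1.27, then the 2 NS groups of ZT10. Of the 11 steps between neighbours in this order, limma called only that from CJ livers at ZT10 and 30 weeks to NS livers at ZT10 and 12 weeks. It was 2.41 on the log2 scale (adjusted p = 0.0103) and crosses age as well as schedule. The neighbours were set by these same means, so the steps are a description, and the share of all genes called was not counted. Clock had its groups in the same 3 blocks, from 0.91 through 0.50 to -0.21 in CJ livers and down to -0.90, and none of its 11 steps was called. In Npas2 the 2 NS groups of ZT2 led at -3.09 and -3.52 and the other 10 groups, of which 9 had no mouse well above background, lay between -5.10 and -6.02.

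The pooled SD within groups was higher in CJ than in NS mice in all 3 members, and for Arntl the SD of each schedule rested largely on 1 group. It was 0.82 in CJ and 0.42 in NS mice for Arntl, a ratio of 1.93. It was 0.29 in CJ and 0.12 in NS mice for Clock, a ratio of 2.45, and 0.65 in CJ and 0.40 in NS mice for Npas2, a ratio of 1.61. Over all genes the same ratio had a median of 1.03 and an upper decile of 1.66. Without the CJ group at ZT2 and 30 weeks, a choice made after seeing the data, the Arntl SD was 0.48 in CJ and 0.42 in NS mice, a ratio of 1.13. The ratio was then 2.41 for Clock and 1.44 for Npas2, beside a median of 1.04 and an upper decile of 1.68 over all genes. The Arntl ratio of 1.13 keeps the NS group at ZT10 and 30 weeks, with an SD of 0.90 and 1 of 3 mice well above background. The other NS groups had Arntl SDs of 0.044 to 0.20, beside 0.20 to 0.77 in the other CJ groups. A ratio without both groups was not computed. These ratios are a description over 16 CJ and 16 NS mice with no test, and the Npas2 values lie mostly below background.

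To see whether other clock genes moved with Arntl in single mice, each mouse was set against its group mean. Pearson's r and Spearman's rho were computed for 5 gene pairs in each schedule, with p from 100000 permutations within groups, two-sided and adjusted over these 10 relations. In CJ mice the deviations of Arntl and of Dbp, a transcription factor gene that the activator dimers switch on through E-boxes, ran opposite to each other, with r = -0.892 (p = 0.00043, adjusted p = 0.0043) and rho = -0.968 (p = 0.00066, adjusted p = 0.0066). Arntl and Dbp deviated to the same side in 1 of 16 CJ mice. In the ZT2 groups of 2 mice the deviations are equal and opposite, so each such pair counts as 1 observation. In NS mice r was -0.239 (adjusted p = 0.997), and whether the schedules differ in this was not tested.

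The ZT2 mice of 30 weeks lay farthest out, and without these 2 mice r was -0.922 (adjusted p = 0.0070, n = 14, permutation test). With slide means removed as well as group means, over all 16 CJ mice, r was -0.889 (adjusted p = 0.0126). The other 4 pairs were not called in either schedule. In CJ mice r was 0.52 for Arntl with Clock (permutation p = 0.186, adjusted p = 0.931), 0.31 for Arntl with Npas2, 0.039 for Clock with Npas2 and 0.0018 for Arntl with Nr1d1 (adjusted p = 0.997 for these 3). Both genes of a pair were read on the same array, so anything that moves a whole array is shared between them.

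**Figure D3:**
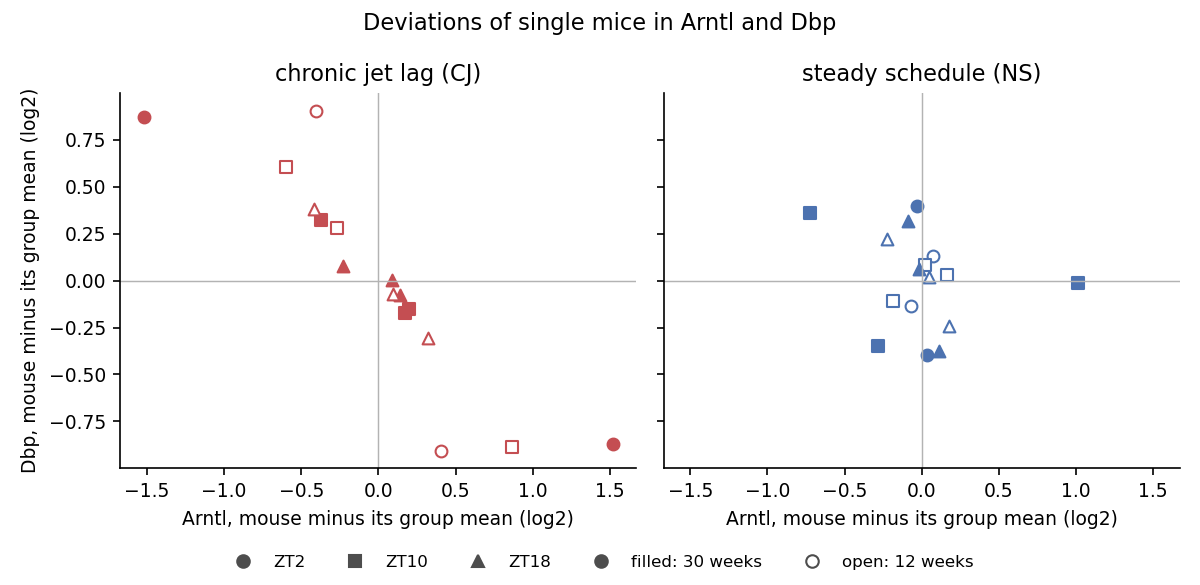
Deviation of each mouse from its group mean in Arntl (x axis, log2) and in Dbp (y axis, log2), CJ mice on the left and NS mice on the right, with 16 mice in each panel. Circles are ZT2, squares ZT10 and triangles ZT18, filled at 30 weeks and open at 12 weeks. The CJ points fall along a descending line (r = -0.892), with the 2 ZT2 mice of 30 weeks at its ends. The 2 mice of each ZT2 group mirror each other about their group mean.

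Nuclear receptor genes that act on the members through ROR elements differed between schedules too, with Nr1d2 at ZT18 in the direction opposite to Arntl. Of 4 such genes, 2 (Nr1d1 and Nr1d2) were called for time of day in NS livers (11.2% of all genes at 30 weeks and 17.4% at 12 weeks) and for schedule by time of day (1.97% and 1.9%) at both ages, and Rora and Rorb were not. Nr1d1, which encodes the repressor REV-ERB alpha, averaged 1.44 ± 0.54 at ZT2, -0.12 ± 0.47 at ZT10 and -0.56 ± 0.11 at ZT18 in CJ livers of 30 weeks, and 0.56 ± 0.85, 1.03 ± 0.89 and -4.73 ± 1.43 in NS livers (mean ± SD, n = 2, 3 and 3). At ZT18 all 3 CJ mice were well above background at each age, against 1 of 3 NS mice at 30 weeks and 0 of 3 at 12 weeks, so that this NS mean lies mostly below background. Nr1d2, which encodes REV-ERB beta, was higher at ZT18 by 1.73 at 30 weeks (adjusted p = 0.000368) and by 1.82 at 12 weeks (adjusted p = 0.000168). The median span of the 4 genes in schedule by time of day was 2.45 at 30 weeks and 2.52 at 12 weeks, beside 0.36 and 0.38 over all genes. That median falls between Nr1d2 (2.00 and 2.29) and Rorb (2.90 and 2.76), and Rorb was not called (limma, adjusted p = 0.231 and 0.276). Rora spanned only 0.41 and 0.23, so the median does not stand for all 4 genes.

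Other genes known to be read through ROR elements were set beside the members, and Arntl2 of this list was not tested for want of signal. Of the 3 tested, 2 (Nfil3 and Cry1) were called when the daily profiles of the schedules were compared, at each age, beside 1.97% of all genes at 30 weeks and 1.9% at 12 weeks. Nfil3, a transcriptional repressor of D-box genes, rose by 1.46 at ZT10 (adjusted p = 0.0113) and had a difference of -1.57 at ZT2 (adjusted p = 0.014) in CJ livers of 30 weeks. Cry1, an inhibitor of the activator dimers, had a difference of -1.61 at ZT18 and 30 weeks (adjusted p = 0.00927) and of 1.58 at ZT10 and 12 weeks (adjusted p = 0.0191). At the other age neither was called by limma, with -0.70 at ZT18 and 12 weeks (adjusted p = 0.304) and 1.39 at ZT10 and 30 weeks (adjusted p = 0.0570). The median span of the 3 genes was 3.0 at 30 weeks and 2.85 at 12 weeks. E2f8, a cell cycle regulator, was not called in that test at either age.

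Genes that the dimers switch on through E-boxes and whose products inhibit them were tested in 8 of 8 cases (Per1, Per2, Per3, Cry1, Cry2, Ciart, Bhlhe40 and Bhlhe41). For time of day 3 were called in CJ livers of 30 weeks (3.62% of all genes) and 4 in those of 12 weeks (5.7%), against 8 and 8 in NS livers (11.2% and 17.4%). For schedule by time of day 4 were called at 30 weeks (1.97%) and 3 at 12 weeks (1.9%). Ciart, a repressor of CLOCK-BMAL1, averaged -1.38 ± 1.25 at ZT2, 0.19 ± 0.37 at ZT10 and -0.26 ± 0.29 at ZT18 in CJ livers of 30 weeks, and -5.75 ± 0.37, 1.25 ± 0.29 and -3.61 ± 0.70 in NS livers. At ZT2 neither Ciart nor Per3 was well above background in any NS mouse, at either age. Per1 and Per2, whose products inhibit the dimers, were among those called for time of day in CJ livers, with a range of 2.12 (adjusted p = 0.00663) and 1.71 (adjusted p = 0.0063) at 30 weeks. In NS livers of 30 weeks these ranges were 4.26 and 1.81. Neither gene was called for schedule by time of day at either age. For Per2 that span was only 0.20 at 30 weeks (limma, adjusted p = 0.979) and 0.48 at 12 weeks (adjusted p = 0.780). The median span of the 8 genes in schedule by time of day was 2.57 at 30 weeks and 1.87 at 12 weeks, beside the same 0.36 and 0.38 over all genes. That median does not stand for Per2.

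Among 8 output genes of the same E-box type, all of them tested, 3 were called for time of day in CJ livers of 30 weeks and 7 in those of 12 weeks (3.62% and 5.7% of all genes), against 8 and 8 in NS livers (11.2% and 17.4%). When the daily profiles of the schedules were compared, 3 of 8 were called at 30 weeks and 2 of 8 at 12 weeks (1.97% and 1.9% of all genes). Averaged over the 3 times, 8 of 8 were called higher in CJ livers at 30 weeks and 5 of 8 at 12 weeks, where 1.77% and 2.15% of all genes were called higher. Their median difference was 0.91 at 30 weeks and 0.53 at 12 weeks, beside -0.02 and 0.03 over all genes. These are averages of log2 levels, in which a higher trough can outweigh a lower peak. They do not give the mean RNA amount over the day, which was not compared. Dbp averaged 5.22 ± 1.23 at ZT2, 5.89 ± 0.28 at ZT10 and 5.60 ± 0.08 at ZT18 in CJ livers of 30 weeks, and 0.74 ± 0.56, 7.11 ± 0.35 and 2.40 ± 0.35 in NS livers. Its daily range was called in NS livers and not in CJ livers at either age. Usp2, a deubiquitinase gene, was called for time of day in CJ livers too, with a range of 1.97 at 30 weeks (adjusted p = 0.0107) beside 5.83 in NS livers.

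**Figure D4:**
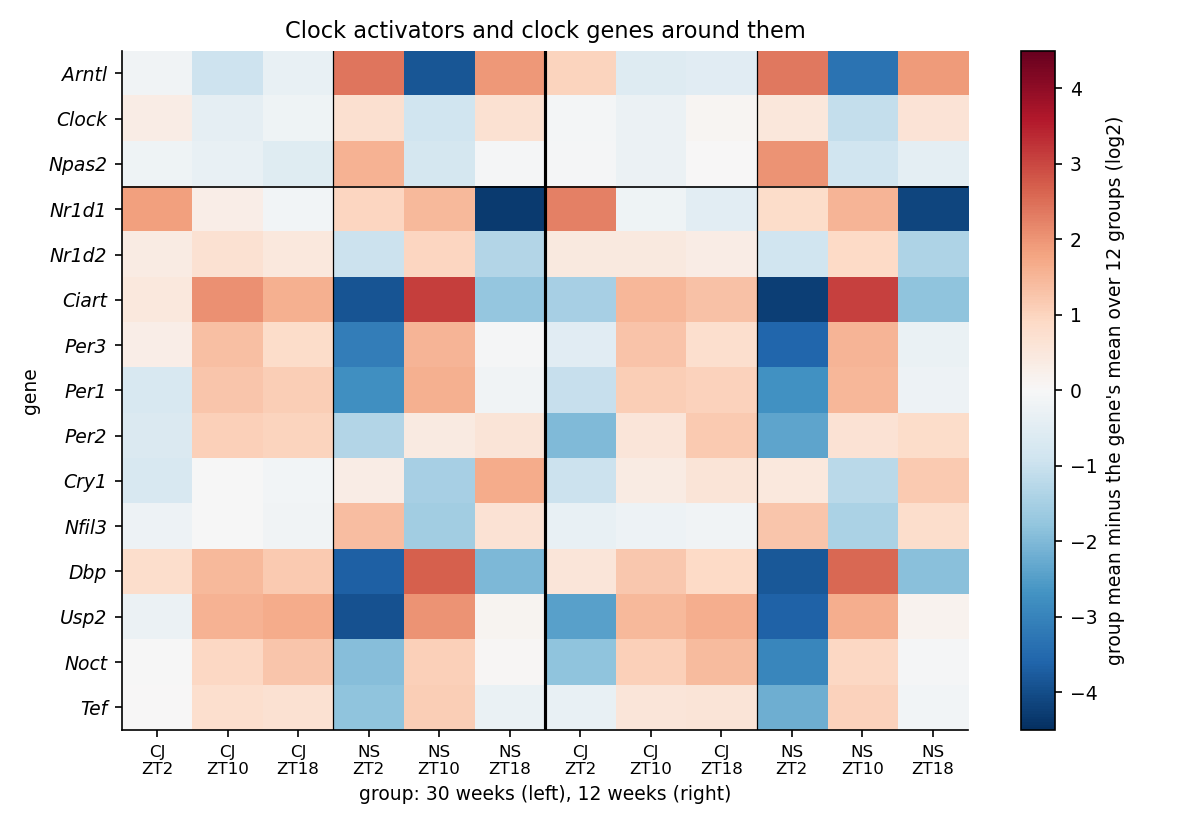
Group means of the 3 activators (top) and of 12 clock genes around them, each minus the gene's own mean over the 12 groups, on the log2 scale from blue (low) to red (high). The 6 groups of 30 weeks are on the left and those of 12 weeks on the right, and within each age CJ groups are left of NS groups. In the Arntl row the alternation of colours in the NS columns is paler in the CJ columns, where its range was 12.4% of the NS range at 30 weeks and 28.0% at 12 weeks.

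Relatives and modifiers of the members were set beside them as well. Of 16 bHLH-PAS genes and coactivators, 9 could be tested (Arnt, Hif1a, Epas1, Hif3a, Ahr, Sim2, Ncoa1, Ncoa2 and Ncoa3), and 0 of 9 were called for time of day in NS livers (11.2% and 17.4% of all genes) or for schedule by time of day (1.97% and 1.9%) at either age by limma, with 1 to 3 of 9 at an unadjusted p under 0.05 in these 4 tests. Their median span in the second test was 0.34 at 30 weeks and 0.32 at 12 weeks. Their widest range over the 12 group means was 0.79, in Hif3a. Of 29 genes for kinases, ubiquitin ligases and cofactors that act on the 3 proteins, 28 were tested. For time of day 0 were called in CJ livers of 30 weeks (7 at an unadjusted p under 0.05) and 2 in those of 12 weeks (3.62% and 5.7% of all genes), against 5 and 8 in NS livers (11.2% and 17.4%), so that fewer calls in CJ livers were found over all genes too, and 0 were called for schedule by time of day at either age (3 at an unadjusted p under 0.05 at 30 weeks and 4 at 12 weeks; median span 0.20 and 0.35). Tardbp (range 1.53 over the 12 group means) had the widest range of these.

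Arntl and Clock resembled each other over the 12 fitted group means, with Pearson's r of 0.944. For Npas2 r was 0.687 with Arntl and 0.643 with Clock. Both include the NS groups at ZT2 through which Npas2 passed the filter, and its other groups were almost all below background. These values and those that follow describe 12 points that share arrays, with no p. Among 2804 genes whose group means ranged over at least 1 log2 unit, the genes most like Arntl were Leo1 (r = 0.988), Lrfn3 (0.987), Nedd4l (0.981) and Abtb2 (0.980), and the most opposite were Slc5a6 (-0.985), Clmn (-0.979), Pfkfb2 (-0.971) and Hook2 (-0.970). For Clock they were Nedd4l (0.976), Leo1 (0.967), S1pr1 (0.960) and Lrfn3 (0.960), and on the opposite side Zbed5 (-0.980), Clmn (-0.966), Hook2 (-0.964) and Ppargc1b (-0.953). Leo1, Nedd4l and Lrfn3 were thus on both lists of most alike genes, and Clmn and Hook2 on both lists of most opposite genes.

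For Npas2 the likeness was weaker and rests on 2 of 12 groups that were measured above background in every mouse. C2cd4b (r = 0.921), Pml (0.901), Depp1 (0.890) and Arl4a (0.889) were most alike. Tef (-0.929), Per3 (-0.928), Sdcbp2 (-0.920) and Ppat (-0.876) were most opposite. Over the 32 single arrays r was only -0.28 for Sdcbp2, whereas it was -0.82 for Tef and -0.81 for Per3.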

How the data were processed

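Liver RNA of 32 mice was read on 32 1-colour (Cy3) Agilent arrays, on 8 slides of 4 arrays. The deposited scanner files hold a processed intensity per spot, background-subtracted by Feature Extraction 11.0.1.1 per the file headers, whereas the submitters' processing notes name version 9.1. The authors' deposited value table is on a log2 scale, with column medians of 9.82 to 9.90, holds 15148 probes and was used only as an alternative. Its columns each correlated best with their own array (r of 0.995 to 0.999). The method behind its normalization and batch removal is not given in the sources used here.

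Signals were divided by the 75th percentile of the array and log2-transformed, spots of a probe were averaged, control spots were left out, and the brightest probe stood for a gene. A probe was kept if every array of some group had it well above background, which left 23110 genes. limma 3.58.1 fitted the 12 groups with the slide as a random block (correlation 0.254), tested 19 comparisons and adjusted p-values over all genes by Benjamini-Hochberg, with a threshold of 0.05. Such a fit weighs arrays by slide, so fitted differences depart a little from differences of plain means. The fit was tested on simulated data before use. Nothing in the labels shows separate cohorts, and 1 mouse is 1 sample. Precision is limited by 2 or 3 arrays per group.

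The members and lists were chosen with earlier results of these data known. A result on 1 further list gene is not reported here. Genes were named by this rule: the members, the 4 genes most and least like each member, and up to 4 genes of each list with the widest range over the 12 group means. Tef in the colour map and further list genes named without values are exceptions chosen after their values were seen. Alternatives changed the slide term, background correction (normexp on median signals, since mean signals were not used here), scaling, filter, probe choice, ages fitted, marker covariates and mice.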

Additional observations from a re-analysis of the deposited data

Results flagged for a closer look

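The CJ minus NS difference changed with time of day by the test of that difference itself (limma, schedule by time of day) for Arntl and Clock at both ages. It spanned 5.23 on the log2 scale for Arntl at 30 weeks and 5.22 at 12 weeks. For Clock it spanned 1.46 at 30 weeks and 1.41 at 12 weeks. For Npas2 the fit gave 2.81 at 12 weeks, but the gene passed the filter only through the NS groups at ZT2 that make this span. The call ended in 22 of the 32 fits without 1 mouse, and the span was 0.29 with signals raised to background, so it is given as a value only.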

How the results depend on the processing

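Of 688 values of 57 member results under 13 alternatives, 630 kept their direction and side of the threshold, 34 lost and 9 gained a call and 15 reversed, and the cause was not tested. Daily ranges and profile differences have no sign, so for them only the side of the threshold could change. This tally and the changes listed below include Npas2, whose calls are given only as values of the fit and are not read as results. With the slide as a fixed term, schedule by time of day lost its call for Arntl (4.93) and Clock (1.58) at 30 weeks and for Clock (1.37) and Npas2 (2.90) at 12 weeks, as did CJ minus NS for Arntl at ZT2 (-2.44), ZT10 (2.49) and ZT18 (-1.98) at 30 weeks, for Arntl at ZT10 (2.75) and ZT18 (-2.58) and for Clock at ZT10 (0.75) at 12 weeks. The Npas2 call at 12 weeks also ended with no slide term (2.71), normexp (0.46), median scaling (2.70), all probes (2.80), no filter (2.81), 12-week groups alone (2.93), marker covariates (2.88) and signals raised to background (0.29), an alternative chosen after seeing the data. Clock at ZT10 and 12 weeks lost its call with median scaling (0.77), 12-week groups alone (0.78) and marker covariates (0.81), the Clock profile difference at 12 weeks with 12-week groups alone and with the covariates (1.42 each), and Arntl at ZT10 and 12 weeks with the covariates (2.13). Arntl at ZT2 and 30 weeks lost it with all probes and no filter (-2.50 each) and with 30-week groups alone (-2.49), which also ended Arntl at ZT10 (2.66) and ZT18 (-2.11). Normexp ended Arntl at ZT10 and 30 weeks (0.69) and the Npas2 range in NS livers of 30 weeks (0.28), and raised signals ended that range (0.24) and the one at 12 weeks (0.68). Calls were gained in the authors' deposited table for the CJ range of Arntl at 12 weeks (1.83) and of Clock at 30 weeks (0.57), for Clock at ZT10 and 30 weeks (0.55) and at ZT18 and 12 weeks (-0.53), for the mean of Arntl at 30 weeks in that table (-0.81), with normexp (-1.01) and with raised signals (-0.90), and for Npas2 at ZT2 and 12 weeks with quantile normalization (-2.50). Mouse numbers do not pair the samples, since deviations of same-numbered CJ and NS mice correlated at -0.426 to 0.216; with the replicate block Npas2 gave 2.80 (adjusted p = 0.0506) for the 12-week profile and -2.03 (adjusted p = 0.0499) at ZT2 and 30 weeks. Small values reversed: CJ minus NS of Npas2 at ZT18 and 12 weeks (-0.029), ZT10 (-0.041) and ZT18 (0.033) at 30 weeks and the 12-week mean (0.030) with normexp, and with raised signals at ZT10 (-0.040 at 12 weeks, -0.0066 at 30 weeks) and ZT18 (0.042). Age reversed for Clock in CJ livers with normexp (0.032), median scaling (0.028), quantile normalization (0.012) and covariates (0.025), for Npas2 there with quantile normalization (0.0022), and in NS livers for Arntl with normexp (0.093) and raised signals (0.082) and for Npas2 with raised signals (-0.11). Clock at ZT18 minus ZT2 in NS livers reversed at 12 weeks with the slide fixed (-0.066), the replicate block (-0.031) and one age (-0.026), and at 30 weeks with no slide term (-0.049), the authors' deposited table (-0.029) and one age (-0.039). Npas2 in CJ livers reversed at ZT10 minus ZT2 (30 weeks: -0.13 with no slide term, -0.11 with quantile, -0.047 with median scaling, -0.046 with one age, -0.0035 with all probes; 12 weeks: 0.15 with quantile), at ZT18 minus ZT2 (12 weeks: -0.017 with normexp, -0.038 raised; 30 weeks: 0.19 and 0.40) and at ZT18 minus ZT10 (30 weeks: 0.10 and 0.063). Deviation correlations reversed without the 2 farthest mice (CJ Arntl-Npas2 -0.287, CJ Arntl-Nr1d1 -0.616, NS Arntl-Npas2 0.0058), without the CJ ZT2 mice of 30 weeks (Clock-Npas2 -0.192, others as before), with quantile values (NS Arntl-Npas2 0.0094) and with slide means removed (CJ Arntl-Nr1d1 -0.372, NS Arntl-Clock 0.568, NS Clock-Npas2 0.011). Leaving out 1 mouse at a time gave, for Arntl CJ minus NS, -4.05 to -0.95 at ZT2, 2.36 to 3.26 at ZT10, -2.33 to -2.02 at ZT18 and -1.17 to -0.13 over the mean at 30 weeks, and 2.24 to 3.21 at ZT10 and -2.75 to -2.25 at ZT18 at 12 weeks. The Arntl CJ range ran 0.61 to 2.42 at 30 weeks and 1.41 to 2.24 at 12 weeks, its age difference in CJ -0.97 to 0.068 and its schedule by age -0.81 to 0.23. Its CJ steps ran -2.42 to 0.68 (ZT10 minus ZT2) and -1.73 to 1.38 (ZT18 minus ZT2) at 30 weeks, and -0.21 to 0.75 (ZT18 minus ZT10) at 12 weeks. Clock ran -0.68 to 0.0081 at ZT2, -0.37 to -0.14 over the mean and 0.35 to 1.03 in its CJ range at 30 weeks, 0.56 to 0.96 at ZT10 and 1.16 to 1.74 in its profile difference at 12 weeks, and -0.12 to 0.11 for age in CJ. Its ZT18 minus ZT2 step ran -0.16 to 0.45 in CJ livers of 12 weeks, -0.028 to 0.11 in NS livers of 30 weeks and -0.056 to 0.086 in those of 12 weeks, and its CJ ZT10 minus ZT2 step -0.51 to 0.10 at 12 weeks. Npas2 ran 1.85 to 3.25 at 30 weeks and 2.64 to 3.13 at 12 weeks in its profile difference, -2.70 to -1.30 at ZT2 and -0.86 to -0.39 over the mean at 30 weeks, and -0.11 to 0.16 for age in NS. Its CJ steps ran -0.69 to 0.71 (ZT10 minus ZT2) and -0.96 to 0.44 (ZT18 minus ZT2) at 30 weeks, and -0.69 to 0.13 and -0.089 to 0.63 at 12 weeks. Without CJ mouse 2 at ZT2 and 30 weeks, the CJ minus NS mean over times was -1.17 for Arntl and -0.37 for Clock. For Npas2 it was -0.86, which includes the NS group at ZT2 through which the gene passed the filter, so no test is read from it. Counts over all genes moved by more than 1.5 times too: schedule by time of day 56 to 1110 at 30 weeks beside 455, and 39 to 690 at 12 weeks beside 439, and ZT10 at 12 weeks 7 to 1590 beside 395. Npas2 is limited by signal over background on 27 of 32 arrays.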
